A study of Mus musculus with 9 samples.

Results

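Transcripts of 40 ribosome biogenesis and nucleolar genes were measured by RNA sequencing in mouse spleen B cells labelled pre-GC, which names the stage ahead of the germinal centre, the site of B cell selection for better antibodies. The genes were taken by name from the deposited count table, and all 40 were also present in the deposited log2 table, out of 55536 genes counted and 12849 tested. The libraries fell into 5 labelled p52Ki, whose titles read p52ki/ki, and 4 labelled WT. p52 is the NF-kB subunit made from the Nfkb2 gene, and the notation stands for a knock-in on both alleles. The sources used here do not give how the knock-in was made, how the cells were sorted, the age of the mice or any immunisation, and germinal centre B cells, which the design text also names, were not analysed here. Nothing in the labels ties a library to its own mouse, and p-values therefore rest on a spread among libraries that may be technical.

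Ribosomes are assembled in the nucleolus. RNA polymerase I transcribes a long precursor ribosomal RNA there, small nucleolar ribonucleoproteins (snoRNPs) guide its chemical modification, and separate sets of factors cut, fold and export the small (40S) and large (60S) subunits. In B cells this programme is switched on when the cell grows after activation, and the transcription factor MYC is one of its main activators. Dividing cells also raise genes of DNA replication and mitosis, so cell cycle genes of the same libraries were taken as the comparison.

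None of the 40 genes passed the test between p52Ki and WT, while cell cycle genes fell by about 2-fold in the same libraries. By edgeR's quasi-likelihood test, 0 of the 40 genes had an adjusted p under 0.05, where 8.53% of all 12849 genes passed, 4.49% higher and 4.04% lower in p52Ki. Their median log2 fold change (p52Ki over WT, so that -1 is a 2-fold fall) was -0.08, with a middle range from -0.34 to 0.14, against a median of 0.03 over all genes tested. Of the 40 genes 26 were below 0, where 48.2% of all genes were. Of the 8912 genes tested in their range of abundance 4689 were below 0, with a median of -0.04. With libraries scaled by their total counts alone the medians were 0.01 for the 40 genes and 0.12 for all genes. The sign of the median therefore depended on the scaling. Its distance from that of all genes was -0.10 as reported and -0.11 with total counts. Over the alternatives this distance ran from -0.20, without p52Ki replicate 2, to -0.04, with a filter of 10 CPM in 4 libraries. Among 43 S phase genes 23 fell and none rose (median log2 fold change -0.90), and among 54 genes of G2 and M phase 31 fell and none rose (median -1.10). Counts per gene are relative to all RNA of a library, and fewer cells that make a transcript cannot be told apart from less of it per cell.

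**Figure D1:**
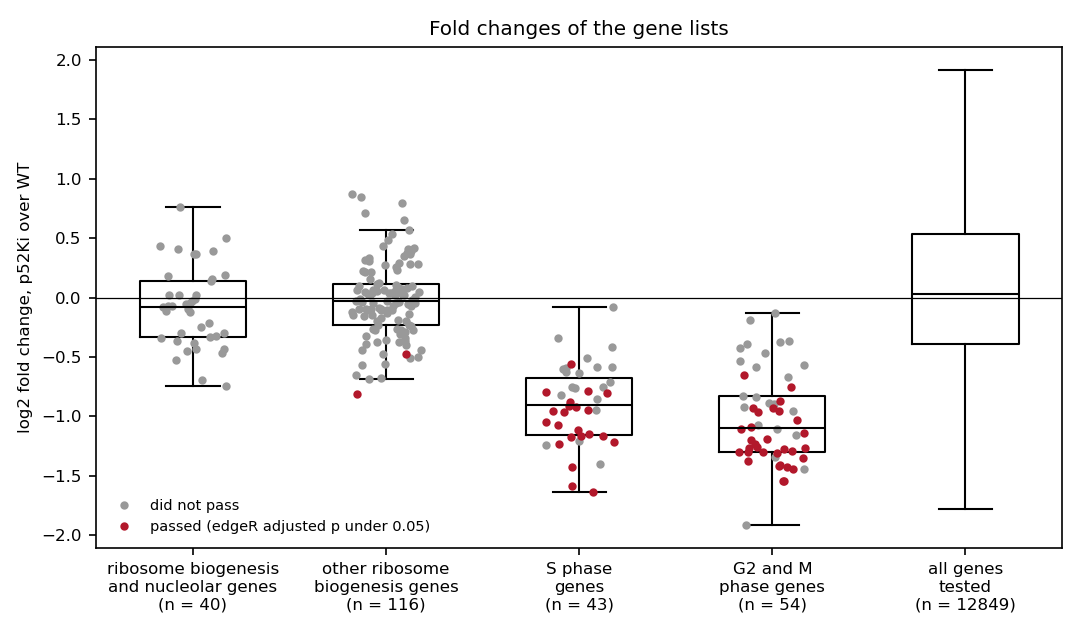
Log2 fold change (p52Ki over WT) of each gene in the 4 lists, with boxes for the median and quartiles, whiskers for 1.5 times the quartile range, and all 12849 genes as a box alone; red points passed the test. The ribosome biogenesis and nucleolar genes lie around 0, at a median of -0.08, and both cell cycle lists, S phase first, lie below it, at medians of -0.90 and -1.10.

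The libraries differed in depth. Total counts ran from 4492160 to 6647650 in p52Ki and from 7368604 to 7937579 in WT (exact two-sided permutation p = 0.0159, adjusted 0.0238 over 3 measures). Genes with at least 1 count numbered 15504 to 16634 in p52Ki and 14033 to 14793 in WT (exact permutation p = 0.0159, adjusted 0.0238). The 6 B cell markers were counted in every library and summed to 11010 to 14480 CPM (counts relative to the scaled size of the library) in p52Ki and to 9689 to 10927 CPM in WT. Of 8 T cell markers 1 was abundant enough to test, Lck, and the list summed to 76.9 to 201 CPM in p52Ki and 188 to 256 CPM in WT. Myeloid markers summed to 87.0 to 182 CPM in p52Ki and 38.9 to 129.5 CPM in WT, NK cell, erythroid and platelet markers to at most 24.1 CPM in a library, and 4 of 5 neutrophil markers and the 3 collagen genes were at 0 in all libraries. Of 5 stromal and endothelial markers 1 was abundant enough to test, Pecam1, which rose by 1.36 on the log2 scale (edgeR adjusted p = 0.0256). The other endothelial marker, Cdh5, was too scarce to test. Of 8 germinal centre B cell markers 6 fell and 0 rose, with a median of -1.22. Of 5 plasma cell markers Irf4 rose and Jchain fell, and 3 of 8 heat shock genes fell. These were Hspa1a, Hspa1b and Hsph1, with log2 fold changes of -4.27, -4.16 and -0.85. Hspa1a was at 15.5 ± 7.74 CPM in p52Ki and 299 ± 229 CPM in WT (edgeR adjusted p = 0.00266). The part of these differences in the cell cycle result was not tested.

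Ncl and Npm1 encode abundant proteins of the nucleolus. Ncl, nucleolin, which binds precursor ribosomal RNA (chromosome 1, 86344719 to 86359400), stood at 375, 433, 383, 550.2 and 498 CPM in p52Ki replicates 1 to 5 and at 682, 533, 565 and 633 CPM in WT replicates 1 to 4. All 5 p52Ki libraries lay below the WT mean, and replicate 4 alone of them lay within the WT range. It averaged 448 ± 75.4 CPM in p52Ki and 603 ± 67.0 CPM in WT (SD, n = 5 and 4), and the log2 fold change, -0.43 ± 0.15 (SE), missed the threshold (edgeR adjusted p = 0.0975). Npm1, nucleophosmin, a chaperone of ribosome assembly (chromosome 11, 33152287 to 33163206), stood at 381, 590.3, 426, 628 and 553 CPM in p52Ki and at 468, 548, 645 and 730.0 CPM in WT. The genotypes overlapped widely, with a log2 fold change of -0.21 ± 0.18 (edgeR adjusted p = 0.568).

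None of the snoRNP genes passed the test. In the box C/D particles, which methylate ribosomal RNA, the methyltransferase Fbl and its partners Nop56 and Nop58 had log2 fold changes of -0.04, -0.10 and -0.30. Near-identical stretches in other genes leave the level of Fbl uncertain. Nop56 was at 379.6 ± 45.9 CPM in p52Ki and 405 ± 79.9 CPM in WT (SD, n = 5 and 4), with a 95% interval of the log2 fold change from -0.43 to 0.24. In the box H/ACA particles, which turn uridine into pseudouridine, the enzyme Dkc1 was at 158 ± 16.3 CPM in p52Ki and 198 ± 51.7 CPM in WT (edgeR adjusted p = 0.336). Nhp2, a core protein, was at 90.5 ± 15.0 CPM in p52Ki and 70.3 ± 14.8 CPM in WT (edgeR adjusted p = 0.348). Nolc1, a chaperone of both particles, had a log2 fold change of -0.08 ± 0.28. Gar1, another core protein, was scarce, at 7.86 ± 2.58 CPM in p52Ki and 10.8 ± 5.79 CPM in WT, and its interval from -1.61 to 0.70 is too wide to place it.

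Among the genes of RNA polymerase I and of nucleolar transcription, Polr1b, which encodes the second largest subunit (chromosome 2, 129100995 to 129126594), had the highest log2 fold change of the 40 genes. It stood at 25.1, 58.6, 52.6, 31.7 and 23.9 CPM in p52Ki replicates 1 to 5 and at 13.5, 45.9, 17.6 and 13.7 CPM in WT replicates 1 to 4. WT replicate 2 lay among the p52Ki libraries and the other 3 WT libraries lay below all of them. The log2 fold change was 0.76 ± 0.45 (edgeR adjusted p = 0.369), and 1.36 without WT replicate 2 (edgeR adjusted p = 0.0680). Polr1a, the largest subunit, was at 55.6 ± 13.2 CPM in p52Ki and 42.3 ± 32.0 CPM in WT, where it ranged from 13.7 to 85.0 CPM. Its log2 fold change of 0.40 ± 0.45 was 0.10 without WT replicate 2 and 1.01 without WT replicate 3. Polr1c, which RNA polymerases I and III share, the helicase Ddx21 and Mybbp1a, a nucleolar protein, had log2 fold changes of -0.25, -0.06 and 0.02.

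Among the genes of the small subunit Tsr1, Utp4 and Wdr43 had the lowest log2 fold changes, and none passed. The small subunit processome is the large particle that makes the first cuts in the precursor, and later factors finish and export the 40S subunit. Of these 9 genes 8 had a log2 fold change below 0, with a median of -0.30. For 3 of them, Tsr1, Utp4 and Wdr43, the unadjusted edgeR p was under 0.05, all lower in p52Ki. Such a p with a lower level was found for 10.6% of all genes. It was found for 1289 of the 8912 genes in the range of abundance of the 40 genes. Tsr1, a late 40S maturation factor (chromosome 11, 74898071 to 74909342), stood at 55.9, 84.5, 42.3, 80.1 and 50.8 CPM in p52Ki replicates 1 to 5 and at 121, 87.0, 120.3 and 92.0 CPM in WT replicates 1 to 4. It was the only one of the 40 genes whose genotypes did not overlap, where 13.8% of all genes tested did not, 6.53% with p52Ki the lower. Its log2 fold change of -0.74 ± 0.24 was the lowest of the 40 genes and did not pass (edgeR adjusted p = 0.0783). DESeq2 called it, at an adjusted p of 0.0372, in a test that called 13.2% of all genes.

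Tsr1 shares 32.3% of its annotated exon bases with Srr, which runs on the other strand, and the library kit does not mark strand; which strand setting was used in counting is not stated. Srr, which encodes serine racemase, stood at 40.6 ± 10.5 CPM in p52Ki and 64.3 ± 18.1 CPM in WT (SD, n = 5 and 4), with a log2 fold change of -0.66 ± 0.27 (edgeR adjusted p = 0.175). Without strand, reads within the shared bases cannot be assigned to either gene, and the values of Tsr1 are uncertain.

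Utp4, of the processome (chromosome 8, 106893636 to 106923088), stood at 61.4, 66.5, 56.5, 72.3 and 73.9 CPM in p52Ki and at 104, 113, 67.5 and 96.2 CPM in WT. WT replicate 3 lay within the p52Ki range and the other 3 WT libraries above it. Its log2 fold change was -0.52 ± 0.19 (edgeR adjusted p = 0.128), and that of Wdr43, another processome protein, was -0.47 ± 0.20 (edgeR adjusted p = 0.202). Nop14 and Noc4l, whose yeast counterparts act as partners there, had log2 fold changes of -0.43 and -0.30. Rrp9, a protein of the U3 snoRNP that starts the cleavage (chromosome 9, 106475963 to 106485424), went the other way. It stood at 105, 77.2, 95.6, 62.7 and 46.5 CPM in p52Ki and at 71.7, 45.4, 51.3 and 50.04 CPM in WT, with overlap and a log2 fold change of 0.50 ± 0.26 (edgeR adjusted p = 0.300). Ltv1, another late 40S factor, was at -0.07. Rrp12, which helps export the subunits, ran from 13.6 to 37.2 CPM in p52Ki and from 1.18 to 48.6 CPM in WT. The log2 fold changes of Rrp12 and Utp20, -0.13 and -0.07, carry standard errors of 0.71 and 0.52. Over the alternatives they took both signs, from -0.53 to 0.65 for Rrp12 and from -0.43 to 0.43 for Utp20, and 14 of the 40 genes in all, these included, took both signs.

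Of the 14 genes of the 60S subunit 6 had a log2 fold change below 0, with a median of 0.02. Bop1, Pes1 and Wdr12 form the PeBoW complex, which processes the RNA of the large subunit, and did not share a direction. Bop1 (chromosome 15, 76452989 to 76477277) stood at 77.8, 145, 77.0, 110.3 and 102 CPM in p52Ki and at 174, 122, 196 and 169.9 CPM in WT, with p52Ki replicate 2 and WT replicate 2 making the overlap. Its log2 fold change was -0.69 ± 0.22 (edgeR adjusted p = 0.0737), the smallest adjusted p of the 40 genes. It passed without p52Ki replicate 2 (edgeR adjusted p = 0.0356) and in DESeq2 (adjusted p = 0.0386), and ran up to 0.234 under the other alternatives. Pes1 was at 172 ± 53.3 CPM in p52Ki and 151 ± 6.21 CPM in WT (0.19 ± 0.22), and Wdr12 at 61.9 ± 16.4 CPM in p52Ki and 54.7 ± 12.9 CPM in WT (0.18 ± 0.26).

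The other 60S genes lay between -0.38 and 0.41. The lower end was Rrs1, which brings the 5S RNA particle into the subunit, at 58.3 ± 22.6 CPM in p52Ki and 75.9 ± 20.1 CPM in WT. The upper end was Gnl3, nucleostemin, a nucleolar GTPase, at 62.2 ± 14.2 CPM in p52Ki and 46.8 ± 6.44 CPM in WT (edgeR adjusted p = 0.330). Nop16 was at 88.1 ± 20.3 CPM in p52Ki and 68.3 ± 3.73 CPM in WT (0.37 ± 0.20). The RNA methyltransferase Nop2 was at 107 ± 18.4 CPM in p52Ki and 106 ± 23.2 CPM in WT, and its 95% interval ran from -0.41 to 0.45. Ppan, Gnl2, Noc2l, Noc3l and Rrp1b had log2 fold changes between -0.02 and 0.16, that of Noc3l running from -0.28 to 0.44 over the alternatives, and Nip7 and Wdr74 were at -0.33 and -0.34. Noc2l shares 20.9% of its exon bases with Samd11 on the other strand.

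The last 3 genes belong to polyamine metabolism, which growing cells raise together with ribosome production. Eif5a encodes a translation factor that is active only once it carries hypusine, an amino acid residue formed within it with the polyamine spermidine (chromosome 11, 69916714 to 69921958). It was the most abundant of the 40 genes per length, at 1516 ± 187 TPM (abundance per transcript length) in p52Ki and 1892 ± 155 TPM in WT. Npm1 at 655 ± 105 TPM and Nop56 at 389 ± 84.0 TPM came next in WT. This order depends on the 1 transcript taken for each gene. That of Ncl is 8202 bases long, which puts Ncl at 132 ± 17.3 TPM in WT. Eif5a stood at 1116, 1354, 1133, 1264 and 1009.6 CPM in p52Ki and at 1509, 1337, 1521 and 1692 CPM in WT. Only p52Ki replicate 2 and WT replicate 2 overlapped. Its log2 fold change was -0.37 ± 0.12 (edgeR adjusted p = 0.0830).

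Odc1, ornithine decarboxylase, which starts polyamine synthesis, was at 81.9 ± 15.9 CPM in p52Ki and 88.3 ± 20.7 CPM in WT, a log2 fold change of -0.11, and 8 near-identical copies leave its level uncertain. Srm, spermidine synthase (chromosome 4, 148591503 to 148594993), stood at 74.8, 99.6, 86.2, 84.3 and 24.1 CPM in p52Ki and at 33.9, 56.2, 66.8 and 61.3 CPM in WT. p52Ki replicates 1 to 4 lay above every WT library and replicate 5 below them all. Its log2 fold change was 0.44 ± 0.36 (edgeR adjusted p = 0.548), and 0.68 without p52Ki replicate 5 (edgeR adjusted p = 0.130).

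**Figure D2:**
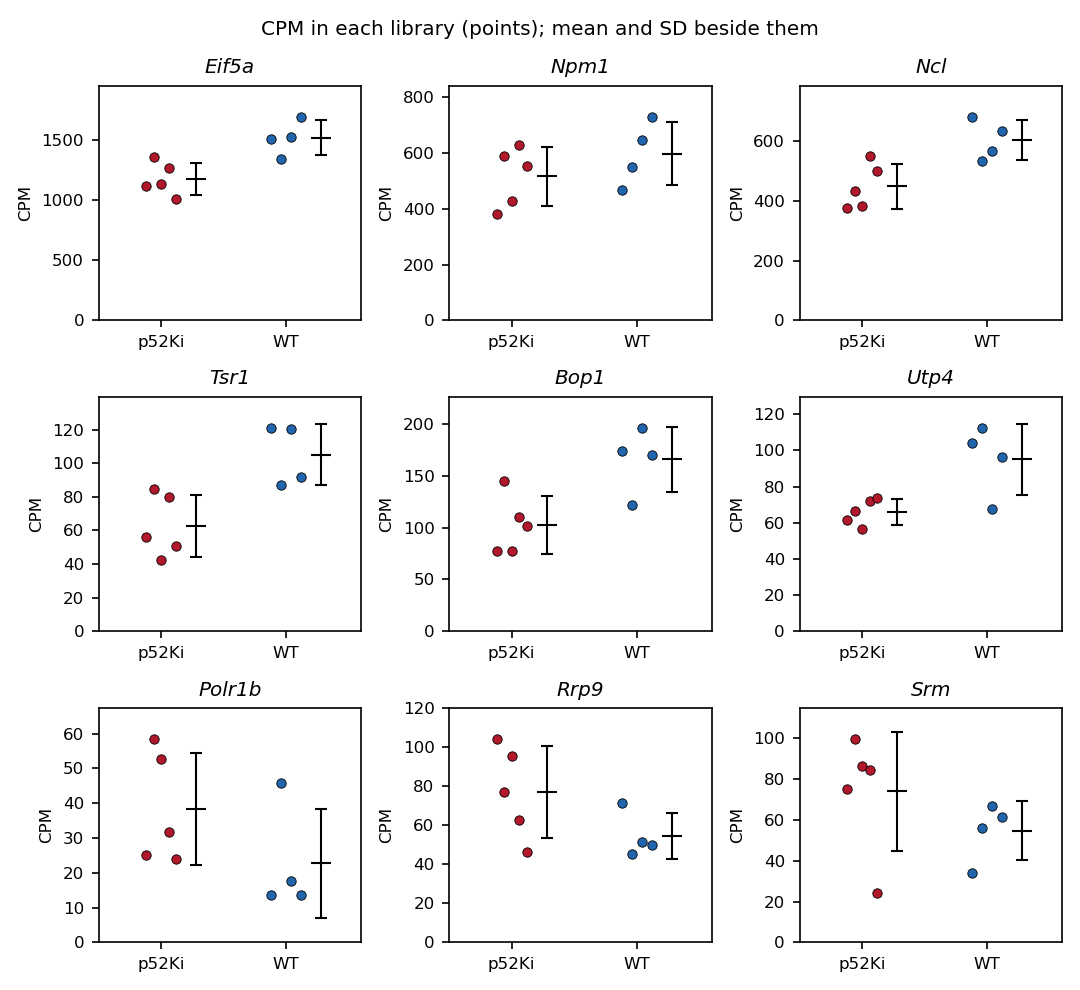
CPM in each library for the 9 genes given library by library, with p52Ki (red) left of WT (blue), and the mean with its SD beside the points (n = 5 and 4). Of these genes, Tsr1 alone has no overlap between the genotypes, and Srm is split by p52Ki replicate 5 at 24.1 CPM.

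Single genes that missed the threshold were not thereby shown to be equal, so intervals were read as well. At an unadjusted p under 0.05, 6 of the 40 genes were lower and 0 higher in p52Ki (edgeR; Bop1, Tsr1, Eif5a, Ncl, Utp4 and Wdr43), where 21.4% of all genes tested passed this mark and 10.6% passed it with a lower level in p52Ki. The 6 of 40 are a larger share than that 10.6%, but near the share among the 8912 genes in their range of abundance. Of those 8912 genes 1289 passed the mark with a lower level in p52Ki and 1028 with a higher level. With a higher level in p52Ki 10.8% of all genes passed the mark, where 0 of the 40 genes did. These differences in share were not tested. The limma-voom test, the limma-trend test and edgeR with a GC content and length offset called 0 of the 40 genes, and called 8.51%, 10.9% and 8.63% of all genes. The 95% interval of the log2 fold change lay above -1, and so excluded a 2-fold fall, for 32 of the 40 genes (80.0%), for 56.2% of all genes tested and for 69.8% of the 8912 genes in their range of abundance. Genes in that range were less abundant and less precise, with a median log2 CPM of 5.49 and a median standard error of 0.30, against 6.27 and 0.24 for the 40 genes. The interval lay above -1 for 83.6% of 116 further genes of the pathway, given below, and for 9 of the 97 cell cycle genes (9.28%). The interval lay between -1 and 1 for 28 of the 40 genes, for 30.1% of all genes, for 42.96% of those in their range of abundance and for 71.6% of the further genes. The 8 genes in which a 2-fold fall was not excluded were Tsr1, Bop1, Nop14, Rrs1, Gar1, Noc3l, Utp20 and Rrp12. Of these Gar1, Noc3l, Utp20 and Rrp12 have standard errors of 0.52 to 0.71. Their coefficients of variation (SD over mean) among WT libraries were 53.8%, 71.8%, 62.6% and 83.4%. Gar1 and Noc3l are also the scarcest of the 40 genes. No log2 fold change among the 40 genes reached 1 in either direction, where 20.4% of all genes tested and 12.3% of those in their range of abundance passed 1. None of the further genes passed 1 either.

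**Figure D3:**
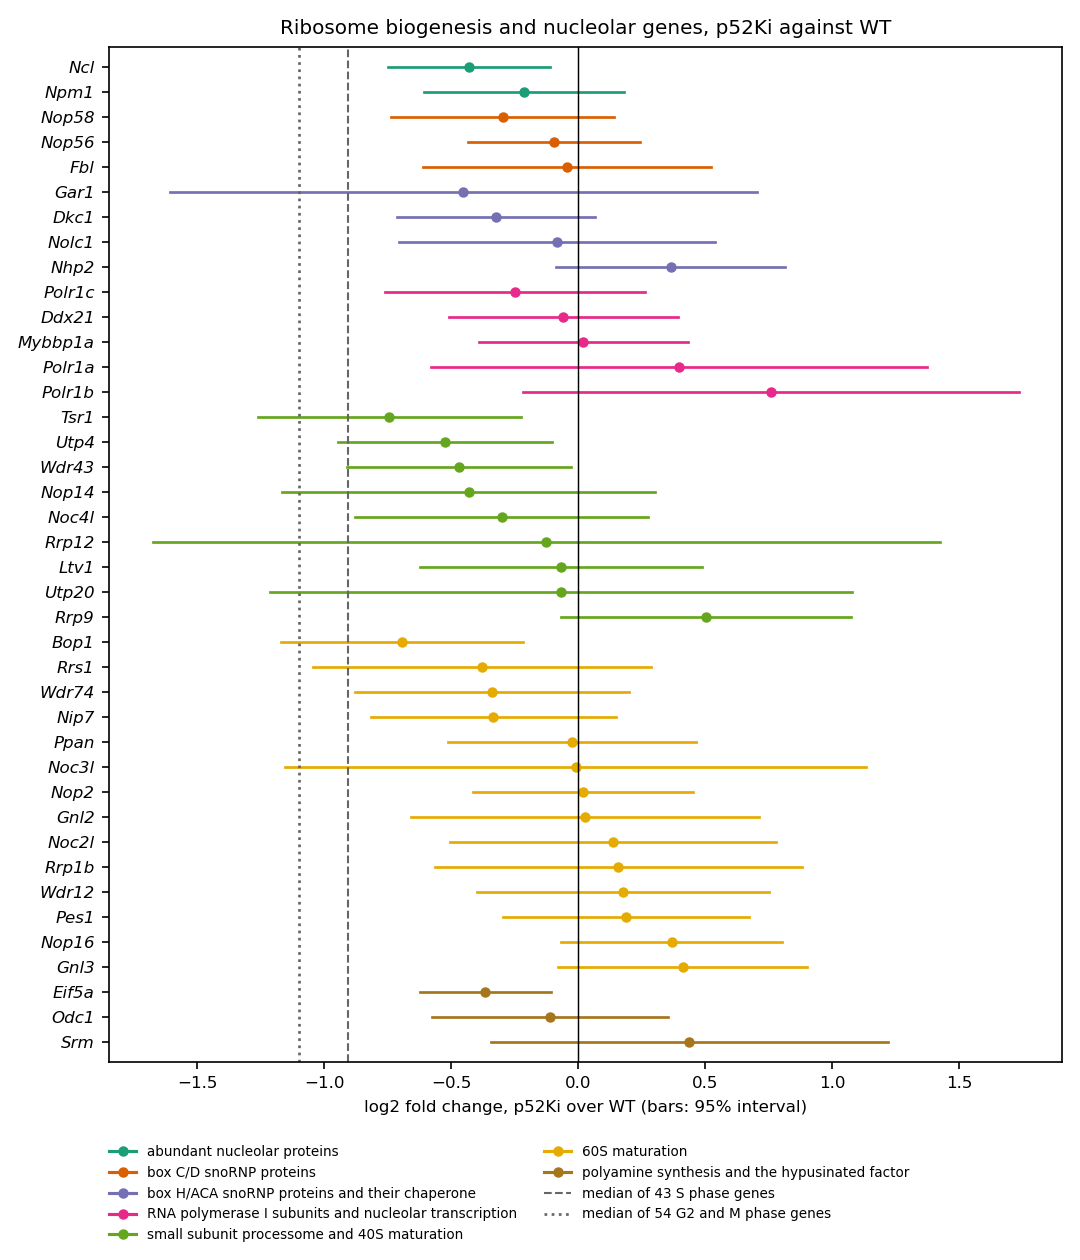
Log2 fold change (p52Ki over WT) of each of the 40 genes with its 95% interval from the edgeR fit, coloured by role, beside the medians of the S phase (dashed) and the G2/M (dotted) lists. Tsr1, at -0.74, is the lowest and Polr1b, at 0.76, the highest, and 32 intervals end above -1.

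The mean log2 CPM of the 40 genes was 6.17, 6.51, 6.37, 6.34 and 6.15 in p52Ki replicates 1 to 5 and 6.17, 6.34, 6.41 and 6.46 in WT replicates 1 to 4, so that the genotypes covered the same range. The mean log2 CPM of the 97 cell cycle genes was 5.82, 6.62, 6.23, 7.03 and 6.12 in p52Ki and 7.48, 7.28, 7.36 and 7.46 in WT, with every p52Ki library below every WT library. p52Ki replicate 4 came closest to WT in the cell cycle genes, and its level of the ribosome biogenesis genes was within the range of the other p52Ki libraries. The summed CPM of the 40 genes was 5344 ± 539.7 in p52Ki and 6169 ± 410.4 in WT (SD, n = 5 and 4), a ratio of 0.866 in which Eif5a, Npm1 and Ncl weigh most. The summed CPM of the cell cycle genes was 12997 ± 3898 in p52Ki and 26038 ± 1811 in WT, a ratio of 0.499. No p is given for these sums, since the lists were chosen with results of these data known.

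**Figure D4:**
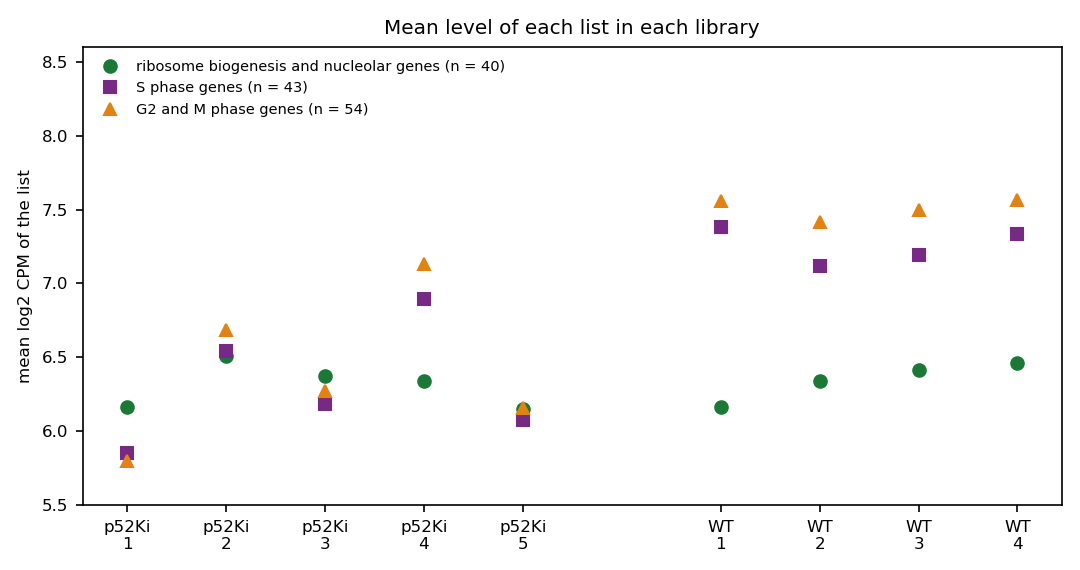
Mean log2 CPM of the 40 ribosome biogenesis and nucleolar genes, the 43 S phase genes and the 54 G2 and M phase genes in each p52Ki and WT library. The first list lies between 6.15 and 6.51 in every library, while both cell cycle lists are lower in each p52Ki library than in any WT library.

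Mki67, a marker of dividing cells, stood at 313, 540.0, 277, 833 and 318 CPM in p52Ki and at 1532, 1078, 1193 and 1088 CPM in WT, and fell by 1.42 on the log2 scale (SE 0.30, edgeR adjusted p = 0.0152). Mcm2, of the replicative helicase, was at 295 ± 87.3 CPM in p52Ki and 663 ± 77.2 CPM in WT (-1.17 ± 0.21, edgeR adjusted p = 0.00687), and Ndc80, of the kinetochore, at 53.6 ± 20.0 CPM in p52Ki and 157 ± 24.7 CPM in WT (-1.55 ± 0.26, edgeR adjusted p = 0.00597). The number of cell cycle genes called depended on the libraries. Without WT replicates 1, 3 or 4 or p52Ki replicates 1, 3 or 5, the S phase genes called were 11, 12, 10, 13, 11 and 12, and without WT replicate 4 or p52Ki replicate 3 the G2 and M phase genes called were 19 and 20. The medians moved less, from -1.02 to -0.80 for S phase and from -1.29 to -0.94 for G2 and M phase genes over all 9 fits without a library.

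Other genes of the pathway, listed by function, were read against the same background. Of 12 further RNA polymerase I genes 0 passed, of 49 small subunit genes 0, of 42 60S genes 1 and of 13 exosome genes 1, so that 2 of 116 (1.72%) were called, both lower in p52Ki, where 4.04% of all genes were called lower. Their median log2 fold change was -0.03. Exosc9, of the RNA exosome that trims ribosomal RNA, fell to 82.1 ± 16.6 CPM in p52Ki, against 144 ± 23.2 CPM in WT (-0.81 ± 0.19, edgeR adjusted p = 0.0235). Eif6, which keeps the new 60S subunit from joining the 40S subunit too early, fell to 183 ± 16.2 CPM in p52Ki, against 255 ± 22.5 CPM in WT (-0.48 ± 0.13, edgeR adjusted p = 0.0424). Both calls ended without any one of WT replicates 1, 3 and 4 or p52Ki replicates 1, 2, 3 and 5, and that of Eif6 also without WT replicate 2 or p52Ki replicate 4.

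Myc stood at 166, 235, 113, 163 and 108 CPM in p52Ki and at 103, 123, 118 and 107 CPM in WT, with overlap and a log2 fold change of 0.48 ± 0.23 (edgeR adjusted p = 0.248).

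The promoters of the 40 genes were searched for 3 short motifs on both strands: CACGTG, the E-box that MYC binds, CCGGAAGT, a site of ETS factors, the family of the ETS1 named in the series title, and the kappa B motif of NF-kB. RefSeq windows of 300 bases, 250 before and 50 after the start of a gene (GRCm38.p6), were matched to 33 of the 40 genes, all but Npm1, Fbl, Rrp12, Bop1, Gnl2, Rrs1 and Srm. Shares are of the genes that have a window, which were 100 of the 123 names listed as other ribosome biogenesis genes, 78 of the cell cycle genes, 8740 of the genes tested and 27025 genes in all. The expression results of that list cover fewer genes, 117 in the counts and 116 tested. The E-box was in a window of 9 of the 33 genes (27.3%), of 17% of the other ribosome biogenesis genes, 6.41% of the cell cycle genes, 12.05% of the genes tested and 8.09% of all genes. The ETS motif was in 11 of 33 (33.3%), against 25%, 11.5%, 10.2% and 4.31% in those sets. The kappa B motif was in 3 of 33 (9.09%), against 13%, 14.1%, 11.8% and 9.55%. Genes with several starts have several windows, and a match is a string of letters, not a bound site. Of the 6 genes with an unadjusted p under 0.05, Tsr1, Utp4, Wdr43 and Eif5a held an E-box. Ncl held none in its window, and Bop1 had no window to search. Eif5a is among the genes with several windows. The other genes with an E-box were Mybbp1a, Nop2, Pes1, Ltv1 and Utp20, with log2 fold changes of 0.02, 0.02, 0.19, -0.07 and -0.07.

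The 30 bases around an E-box (capitals) of each of the 9 genes are given on the strand of the gene, 5′ to 3′, to show where the motif lies and what surrounds it. In Tsr1 (chr11:74898092-74898121), Utp4 (chr8:106893643-106893672), Wdr43 (chr17:71616220-71616249), Pes1 (chr11:3963965-3963994), Ltv1 (chr10:13193092-13193121), Utp20 (chr10:88826765-88826794) and Mybbp1a (chr11:72441347-72441376) it began 25, 16, 18, 3, 29, 38 and 41 bases into the transcript. In Nop2 (chr6:125131811-125131840) and Eif5a (chr11:69921443-69921472) it began 60 and 185 bases before a start. This Eif5a motif also lies in the window of another start, to which it is closer. Eif5a has another E-box (chr11:69920791-69920820), 178 bases before a different start. Ltv1, Utp20 and Eif5a run on the minus strand and the others on the plus strand.
Tsr1: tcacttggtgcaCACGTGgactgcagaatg
Utp4: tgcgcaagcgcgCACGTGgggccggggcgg
Wdr43: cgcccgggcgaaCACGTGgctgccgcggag
Pes1: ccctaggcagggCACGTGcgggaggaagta
Ltv1: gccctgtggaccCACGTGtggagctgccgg
Utp20: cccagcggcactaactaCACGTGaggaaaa
Mybbp1a: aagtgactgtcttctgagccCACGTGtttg
Nop2: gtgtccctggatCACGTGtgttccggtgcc
Eif5a: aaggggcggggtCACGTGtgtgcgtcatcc

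In 4 of these genes, Tsr1, Utp4, Ltv1 and Eif5a, a window also held the ETS motif, shown in capitals in the same way, where ACTTCCGG is the motif read on the other strand. The stretches lie at chr11:74898068-74898097 in Tsr1, chr8:106893585-106893614 in Utp4, chr10:13193217-13193246 in Ltv1 and chr11:69920667-69920696 in Eif5a, and the motifs began 1, 44, 98 and 55 bases before a start. Utp4 and Ltv1 each hold another, 20 and 56 bases before a start. In Eif5a the ETS motif lies in the window of the E-box at 178 bases, not in a window of the E-box shown.
Tsr1: ctcgggtccgcCCGGAAGTagagttcactt
Utp4: attgcctgcgcACTTCCGGcctcgcgccgc
Ltv1: agccccacctcCCGGAAGTccccgggaagg
Eif5a: cagccgtagcaCCGGAAGTgttccccattg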

How the data were processed

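RNA of 9 libraries was measured. Per the labels' protocols, cDNA was made with SMART-Seq v2 and cut with Nextera XT, a kit that does not mark strand and adds no molecular identifiers. The build was GRCm38 and the tools HISAT2 2.1.0, SAMtools 1.8 and Subread 1.6.2 (featureCounts), per the submitters' processing notes. The sources used here do not give the annotation, strand setting or filters. Whole-number counts of 55536 genes and log2 CPM values of 12849 genes were deposited. The log2 values equalled edgeR's log CPM from the deposited counts (TMM, prior count 2) to within 4.97e-14.

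Genes were kept by filterByExpr defaults, which left the same 12849. Counts were scaled by TMM and tested in R 4.3.3 with edgeR 4.0.16 (robust quasi-likelihood F test, no covariate, two-sided, Benjamini-Hochberg over 12849 genes, threshold 0.05). The standard error was taken as the size of the log2 fold change divided by root F, and 95% intervals use the t quantile. TPM and GC content use 1 transcript a gene of GENCODE M21 (GRCm38), in which all 55536 identifiers were found. The fit was tested on simulated data. Alternatives were other scalings, filters, removal of immunoglobulin genes, DESeq2 1.42.0, limma 3.58.1, a GC content and length offset, a replicate block and each library left out. Library totals, genes detected and mitochondrial share were compared by exact permutation over 126 splits. Libraries of 1 genotype differed by more than counting noise (chi-square per degree of freedom 24.2 to 47.4).

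The 40 genes and all lists were chosen with earlier results of these data known. All 40 were named, with values in every library for those that passed or did not overlap, the 3 highest and lowest log2 fold changes and the 3 highest mean CPM. From each other list up to 4 called genes of smallest p could be named, with Myc and Mki67 whatever their result. Srr was named after its values were seen. Near copies (150 bases of coding sequence at 95% identity) were found for Fbl (Gm5812 and a Tulp4 transcript) and Odc1 (8 genes), whose levels are uncertain, for Tsr1 (Srr, through the shared bases), and carried under 1% of the member's counts in others. Of the 40 genes 16 share exon bases with a gene on the other strand, 14 of them 10% or less.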

Additional observations from a re-analysis of the deposited data

Results flagged for a closer look

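Each member was checked in each genotype for 1 library far from the rest (gap to the nearest library over the range, Dixon's 95% limit), as were 3 library measures, Myc, Mki67 and Srr. Of 92 groups 6 stood out, where chance gives about 1 in 20. Ppan was at 180 CPM in p52Ki replicate 2 and at 99.7 to 106 CPM in the other p52Ki libraries. Rrp1b was at 28.9 CPM in p52Ki replicate 5 and at 33.1 to 34.4 CPM in the others. Polr1b was at 45.9 CPM in WT replicate 2 and at 13.5 to 17.6 CPM in the other WT libraries. Nop58 was at 201 CPM in WT replicate 4 and at 172 to 175 CPM in the others. Nhp2 was at 48.2 CPM in WT replicate 1 and at 75.9 to 78.8 CPM in the others. The mitochondrial share of counts was 1.64% in p52Ki replicate 2 and 2.18% to 2.36% in the other p52Ki libraries.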

How the results depend on the processing

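Under every alternative except DESeq2 and the fit without p52Ki replicate 2, 0 of the 40 genes were called. DESeq2 called 2 (Bop1 and Tsr1) and 2021 genes in all, and the fit without p52Ki replicate 2 called 1 (Bop1). Over the fits without a library, 0 to 1 of the 40 genes, 625 to 1108 of all genes, 10 to 29 S phase genes, 19 to 38 G2 and M phase genes and 0 to 1 of the other ribosome biogenesis genes were called. Leaving out p52Ki replicate 1, 3 or 5 gave 651, 625 or 716 calls over all genes, and leaving out WT replicate 1 or 4 gave 714 or 711, each over 1.5 times fewer. The other ribosome biogenesis genes called were 1 with no filter, with 10 CPM in 4 libraries, with limma-voom, and with DESeq2 size factors, upper quartile or total count scaling, the call being Exosc9 in each, and 3 with DESeq2. Gar1 was not tested under 10 CPM in 4 libraries. Calls were 577 higher and 519 lower in p52Ki as reported (52.6% higher), and 670 higher and 387 lower with total counts (63.4%). The number of the 40 genes whose interval excluded a 2-fold fall stayed between 31 and 34. With the replicate number as a block 129 genes were called, with 1 S phase gene, 1 G2 and M phase gene, 0 other ribosome biogenesis genes and 0 of the 40 genes. Libraries of the same number did not deviate together (correlations from -0.04 to -0.01), and the labels do not say that a number is shared. The lowest count of a member was 9, of Rrp12 in WT replicate 1, the library with the highest total count.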

Other observations

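Among the p52Ki libraries, replicate 2 held the highest level of 18 of the 40 genes and the highest Myc, at 235 CPM, and replicates 1 and 5 held the lowest level of 13 and 15 of them. In WT replicates 1 to 4 the highest level fell in 10, 9, 10 and 11 genes and the lowest in 12, 13, 9 and 6. The median coefficient of variation between libraries was 23.9% in p52Ki and 22.8% in WT, and 22 of the 40 genes varied more in p52Ki. These counts were chosen after the values were seen, and no explanation for them was tested.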
